A study of Mus musculus with 9 samples.

Results

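Small nuclear RNA (snRNA) and small nucleolar RNA (snoRNA) genes were examined for binding of UBTF, the architectural factor of RNA polymerase I. The GENCODE M1 annotation of the mm9 build holds 2789 such genes on chromosomes 1 to 19, of which 1331 are snRNA genes and 1458 are snoRNA genes. They are 46 to 414 bp long, with a median of 107 bp. Members were the UBTF peaks whose summit, the position of highest signal, lay inside such a gene or at most 500 bp from it. There were 1483 of them among 1796909 peaks in 6 lists, and 713 of the 2789 genes had at least 1 (25.6%, beside 31.5% of 3833 other annotated genes of at most 414 bp). UBTF was immunoprecipitated with a rabbit polyclonal serum to UBTF1/2 from pre-B cells sorted from the bone marrow of C57BL/6 mice. The gate was B220 high, IgM low and IgD low for wild type and premalignant cells and B220+, IgM- and IgD- for malignant cells. Wild type mice and premalignant Eµ-Myc mice were 4 to 6 weeks old. Malignant Eµ-Myc mice were 10 to 20 weeks old and had developed lymphoma. The transgene is carried heterozygously and drives Myc from an immunoglobulin heavy chain enhancer, so its activity is largely restricted to B cells. Each stage had 2 UBTF libraries, called replicate 1 and replicate 2 in the labels, and each library has its own peak list. The study describes these libraries as biological replicate experiments and its sorted cell samples as coming from individual animals. The 3 input samples were not analysed here, and peak lists hold no expression, so the sorted cell type could not be checked against marker genes.

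The major snRNAs U1, U2, U4, U5 and U6 are the RNA parts of the spliceosome, U11, U12, U4atac and U6atac those of the minor spliceosome, and U7 directs 3′ end processing of histone mRNA. snoRNAs guide the modification of other RNAs, mostly ribosomal RNA. Box C/D snoRNAs (SNORD) guide ribose methylation, box H/ACA snoRNAs (SNORA) guide pseudouridylation, and SCARNAs work in Cajal bodies. U3, U8 and U13 are box C/D RNAs that act in ribosomal RNA processing or modification. Most snRNA genes have short promoters of their own that are read by RNA polymerase II, whereas U6 is made by RNA polymerase III, and most vertebrate snoRNAs are cut from introns of host genes. Annotations of small RNA genes in mammals also hold many dispersed copies, often retrotransposed, that are named after the family alone. Here 103 snoRNA genes have an individual mouse symbol, such as Snord37, and nearly all other members carry a family name such as U6 or SNORA17.

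The sequences on which the promoter results turn are those before the starts of U1, U2 and U3 genes that lie in tandem clusters. They were read from mm9 along the direction of transcription, with 260 bases before the annotated start in lower case and the first 40 bases of the RNA in capitals.
U1 chromosome 3 copy 8 (chr3:96292392-96292691, plus strand): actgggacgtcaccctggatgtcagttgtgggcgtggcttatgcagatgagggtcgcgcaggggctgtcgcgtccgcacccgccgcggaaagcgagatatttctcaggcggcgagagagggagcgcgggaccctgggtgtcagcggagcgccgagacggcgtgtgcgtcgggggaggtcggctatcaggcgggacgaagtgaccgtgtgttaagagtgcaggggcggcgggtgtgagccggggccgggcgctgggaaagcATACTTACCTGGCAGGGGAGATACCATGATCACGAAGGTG
U1 chromosome 12 copy 4 (chr12:55820274-55820573, minus strand): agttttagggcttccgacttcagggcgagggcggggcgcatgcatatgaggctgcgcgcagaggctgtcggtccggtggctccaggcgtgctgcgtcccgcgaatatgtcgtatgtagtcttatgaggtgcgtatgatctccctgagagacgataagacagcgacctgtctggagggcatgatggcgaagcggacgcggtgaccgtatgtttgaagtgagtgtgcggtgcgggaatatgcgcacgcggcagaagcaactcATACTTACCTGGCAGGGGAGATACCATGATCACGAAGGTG
U2 chromosome 11 copy 3 (chr11:101502802-101503101, plus strand): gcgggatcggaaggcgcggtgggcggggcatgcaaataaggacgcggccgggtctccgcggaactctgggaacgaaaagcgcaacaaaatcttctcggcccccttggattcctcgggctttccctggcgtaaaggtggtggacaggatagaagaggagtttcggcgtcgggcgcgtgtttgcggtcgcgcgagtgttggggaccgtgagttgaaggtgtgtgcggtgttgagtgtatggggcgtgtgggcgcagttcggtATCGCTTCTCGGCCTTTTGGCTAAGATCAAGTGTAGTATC
U3 chromosome 11 copy 1 (chr11:87256479-87256778, plus strand): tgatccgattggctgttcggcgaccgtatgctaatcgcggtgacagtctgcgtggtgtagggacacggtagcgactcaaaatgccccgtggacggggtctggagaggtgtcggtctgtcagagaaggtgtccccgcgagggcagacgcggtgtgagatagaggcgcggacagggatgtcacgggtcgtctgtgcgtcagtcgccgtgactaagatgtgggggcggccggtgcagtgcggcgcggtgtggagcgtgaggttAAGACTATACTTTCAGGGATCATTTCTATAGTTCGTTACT
This 300-base stretch was identical in 2 of the 8 U1 copies of chromosome 3, in 2 of the 7 of chromosome 12, in 1 of the 5 U2 copies and in all 4 U3 copies. GC content of the 260 upstream bases was 68.5% and 59.6% for the U1 copies, 62.3% for U2 and 63.5% for U3.

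The peak lists differed widely in length. Outside the ribosomal DNA they held 116093 and 184574 peaks in wild type replicates 1 and 2, 78074 and 575596 in premalignant, and 279021 and 563195 in malignant. The narrowest peak spanned 240 to 260 bp in the lists of wild type 1, wild type 2 and premalignant 1, and 670 to 800 bp in those of premalignant 2 and both malignant libraries. The score of a peak is not scaled between lists, so each peak was given a rank percentile within its own list, in which 100 is the highest score. Because a longer list covers more of the genome, each share was set beside a position background, the exact share of all positions on the same chromosomes at which a gene of the same length would have had a summit within 500 bp.

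Small RNA genes had a UBTF summit slightly less often than the position background in every library at 500 bp. The share of genes with a summit was 3.69% and 6.02% in wild type replicates 1 and 2, 2.76% and 15.0% in premalignant, and 6.60% and 15.0% in malignant. The position background in the same order was 4.54%, 7.12%, 3.02%, 17.1%, 8.83% and 17.3%. Among 3833 other annotated genes no longer than 414 bp, the share was 8.24%, 10.7%, 6.03%, 16.8%, 11.3% and 18.1%, above that of the small RNA genes in each list. The mean difference from the position background was -1.49 ± 0.870 percentage points (SD, n = 6 libraries). It was below 0 in 6 of 6 libraries, which gave p = 0.03125 in an exact two-sided sign-flip permutation test, the smallest p that 6 libraries allow, and an adjusted p of 0.0625 over 6 tests. With summits within 200 bp the difference was above 0 in premalignant 1, at 0.0457 points, and below 0 in the other libraries.

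The shares of snoRNA genes lay below the background in all 6 libraries and those of snRNA genes in 2. Of snoRNA genes, 3.29% and 5.14% had a summit in the wild type libraries, 1.71% and 8.50% in the premalignant ones, and 4.25% and 7.48% in the malignant ones, below the position background in all 6 libraries (mean difference -4.59 ± 3.80, SD, n = 6, exact sign-flip permutation p = 0.03125, adjusted p = 0.0625). Of snRNA genes, 4.13% and 6.99% had a summit in the wild type libraries, 3.91% and 22.0% in the premalignant ones, and 9.17% and 23.2% in the malignant ones. These were below the position background in 2 libraries and above it in 4, with a mean difference of 1.91 ± 2.74 points (SD, n = 6, exact sign-flip permutation p = 0.1875, adjusted p = 0.281). After each type was corrected for its own background, snRNA genes stood above snoRNA genes in 6 of 6 libraries at 500 bp. The difference was smallest in wild type 1, at 0.801 points, and highest in malignant 2, at 15.7 points (mean 6.50 ± 6.44, SD, n = 6, exact sign-flip permutation p = 0.03125, adjusted p = 0.0625). At 200 bp it was -0.661 points in wild type 1 and above 0 in the others (exact sign-flip permutation p = 0.09375).

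**Figure D1:**
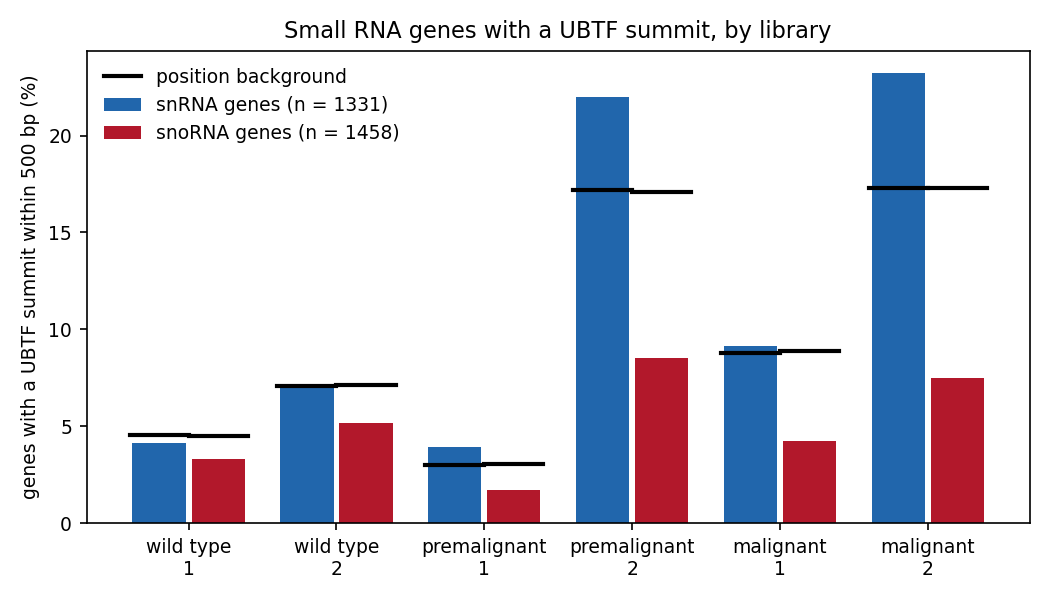
Bars give the percentage of snRNA genes (blue, n = 1331) and snoRNA genes (red, n = 1458) with a UBTF summit within 500 bp in each of the 6 peak lists, and black lines give the position background of each bar. snoRNA bars end below their line in all 6 lists, and snRNA bars rise above it most in premalignant 2 (22.0%) and malignant 2 (23.2%).

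Peaks at small RNA genes were of middling strength. Their median rank percentile was 46.6 and 55.4 in the wild type libraries, 45.2 and 42.4 in the premalignant ones, and 42.9 and 50.8 in the malignant ones, where 50 is the middle of any list. The mean difference from 50 was -2.78 ± 5.04 (SD, n = 6, exact sign-flip permutation p = 0.25, adjusted p = 0.3). Between 6.22% and 12.5% of member peaks had a rank percentile of at least 90.

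The study compared wild type, premalignant and malignant cells. The share of small RNA genes with a summit averaged 4.86% ± 1.65 over the wild type libraries, 8.86% ± 8.62 over the premalignant ones and 10.8% ± 5.93 over the malignant ones (SD, n = 2 each). Malignant was 5.93 points above wild type (exact permutation p = 0.333), premalignant 4.00 points above wild type (exact permutation p = 1) and malignant 1.94 points above premalignant (exact permutation p = 0.667). With 2 libraries against 2, no p can fall under 0.333. On the best 78074 peaks of each list, the number in the shortest one, all 3 differences had the opposite sign.

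By family, U6 accounted for 871 genes and SNORA for 971, of which 579 are SNORA17 copies. In the number of genes with a summit, libraries differed most at U6. Of the U6 genes, 32 and 57 had a summit in the wild type libraries, 22 and 247 in the premalignant ones, and 92 and 255 in the malignant ones. In percent these are 3.67, 6.54, 2.53, 28.4, 10.6 and 29.3, beside position backgrounds of 4.52, 7.05, 3.0, 17.1, 8.75 and 17.2. U6 therefore stood above its background in premalignant 2 and both malignant libraries and below it in the other 3. U2 had 4 and 9 of 46 genes in the wild type libraries, 12 and 3 in the premalignant ones, and 4 and 11 in the malignant ones. Its share was furthest above the position background in premalignant 1 (26.1% beside 3.12%) and wild type 2 (19.6% beside 7.42%). It was 8.70% beside 4.76% in wild type 1, 23.9% beside 17.9% in malignant 2, 8.70% beside 8.95% in malignant 1 and 6.52% beside 17.3% in premalignant 2. U3 had a summit at 3 to 5 of its 24 genes in each list. Its shares of 16.7%, 20.8%, 20.8%, 12.5%, 20.8% and 20.8% stood beside backgrounds of 4.85%, 7.49%, 3.04%, 16.8%, 8.81% and 17.8%, above them in all libraries but premalignant 2. U1 had 8 to 21 of 194 genes per list, above its background in wild type 2 (9.28% beside 7.39%) and premalignant 1 (4.64% beside 3.14%) and below it in the other 4. U7 had 5 to 12 of 111, above its background in both wild type libraries and premalignant 1 and below it in the other 3, for example 6.31% beside 4.32% in wild type 1 and 9.91% beside 16.5% in malignant 2. U4, with 0 to 6 of 42 genes, was below its background in each list, and U5 had 0 to 2 of 10. The minor spliceosome was represented by few genes. A summit lay near 5 of 26 U6atac genes in at least 1 list, 3 of 6 U12 genes, 1 of 3 U11 genes and not near the single U4atac gene. The same share was 25.6% for all small RNA genes and 31.5% for other short genes. SNORA, with 15 to 86 of 971 genes, and SNORD, with 2 to 21 of 342, stood below their position backgrounds in every library.

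Some U1, U2 and U3 genes lie in tandem clusters. Runs of at least 4 genes of a family whose neighbours lay within 100000 bp were gathered as clusters. This grouping was made after the peaks had been seen and is given here as a description. The clusters of U1, U2 and U3 genes are listed first. They were U1 clusters of 8 copies on chromosome 3 (96132348 to 96292816) and of 7 copies on chromosome 12 (55797769 to 55839609), a U2 cluster of 5 copies on chromosome 11 (101466164 to 101519742) and a U3 cluster of 4 copies on chromosome 11 (87256739 to 87285083) within the annotated gene Tex14. Of these 24 genes, 5 had a summit in wild type 1, 14 in wild type 2, 14 in premalignant 1, 4 in premalignant 2, 14 in malignant 1 and 2 in malignant 2. The position background was 4.83%, 7.53%, 3.28%, 17.4%, 8.79% and 17.5%, so the shares of 20.8%, 58.3%, 58.3%, 16.7%, 58.3% and 8.33% were above it in 4 libraries and below it in premalignant 2 and malignant 2. Of the 240 dispersed U1, U2 and U3 genes, 2.50% to 14.6% had a summit, and that share was above its position background of 3.11% to 17.8% in wild type 2 and premalignant 1 only. No order of the stages is seen at these clusters, since each stage held 1 library with 14 genes and 1 with 2 to 5. Runs of SNORA, SNORD and U6 genes met the same rule and are not among the 24 genes. Several had no summit in any list, such as 8 SNORD genes on chromosome 19 and 5 U6 genes on chromosome 6. A run of 166 SNORD genes on chromosome 7 had 16 in premalignant 2 and 0 to 3 in the other lists. A run of 4 SNORA17 genes on chromosome 6 had 2 in premalignant 2, and 13 U6 copies on chromosome 16 had 2 to 4 in each list. No position background is given for these runs, so their counts cannot show a preference.

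U3, the snoRNA that guides early cleavage of the ribosomal RNA precursor, had the most regular pattern. All 4 copies of the chromosome 11 cluster had a summit in wild type 2, premalignant 1 and malignant 1, 2 had one in wild type 1, and 1 had one in premalignant 2 and in malignant 2. The best-ranked summits in wild type 2 lay 58 to 70 bp before the annotated start, at rank percentiles of 57.3 to 69.9. Both wild type 1 summits lay 135 bp before it, at rank percentiles of 40.3 and 54.6. In premalignant 1 the summits lay 25 to 392 bp before the start (rank percentiles 10.1 to 58.9) and in malignant 1 101 to 318 bp before it (19.7 to 62.1). The single summits of premalignant 2 and malignant 2 lay elsewhere, 642 bp and 517 bp downstream of the start of copy 4, at rank percentiles of 98.5 and 94.7. The 4 copies are identical over the gene and over the 250 bases before it, so reads from them cannot be told apart, and bowtie2 with default options reports 1 of several equal placements for such reads.

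At the clustered copies of U1, which pairs with the 5′ splice site, most summits lay upstream of the start. On chromosome 3 copies 7 and 8 each had a summit in wild type 1, wild type 2, premalignant 1 and malignant 1. Those of copy 8 lay 157, 107, 112 and 120 bp before the start in that order, at rank percentiles of 67.7, 73.4, 30.3 and 29.1. Those of copy 7 lay 169, 108, 307 and 286 bp before it, at rank percentiles of 22.4, 73.8, 59.8 and 61.2. Copies 7 and 8 share the 300-base stretch printed above, so reads from it cannot be told apart. Their summits within it are not independent observations. Copy 6 had one in wild type 2, premalignant 1 and malignant 1, the last at a rank percentile of 95.2, the highest in these U1 clusters. Copies 3 and 4 had none in any list. On chromosome 12 copies 4 and 5 had a summit in wild type 2, premalignant 1 and malignant 1, 219 to 366 bp before the start. Malignant 2 had no summit at any of the 15 clustered U1 genes, and premalignant 2 had 3.

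**Figure D2:**
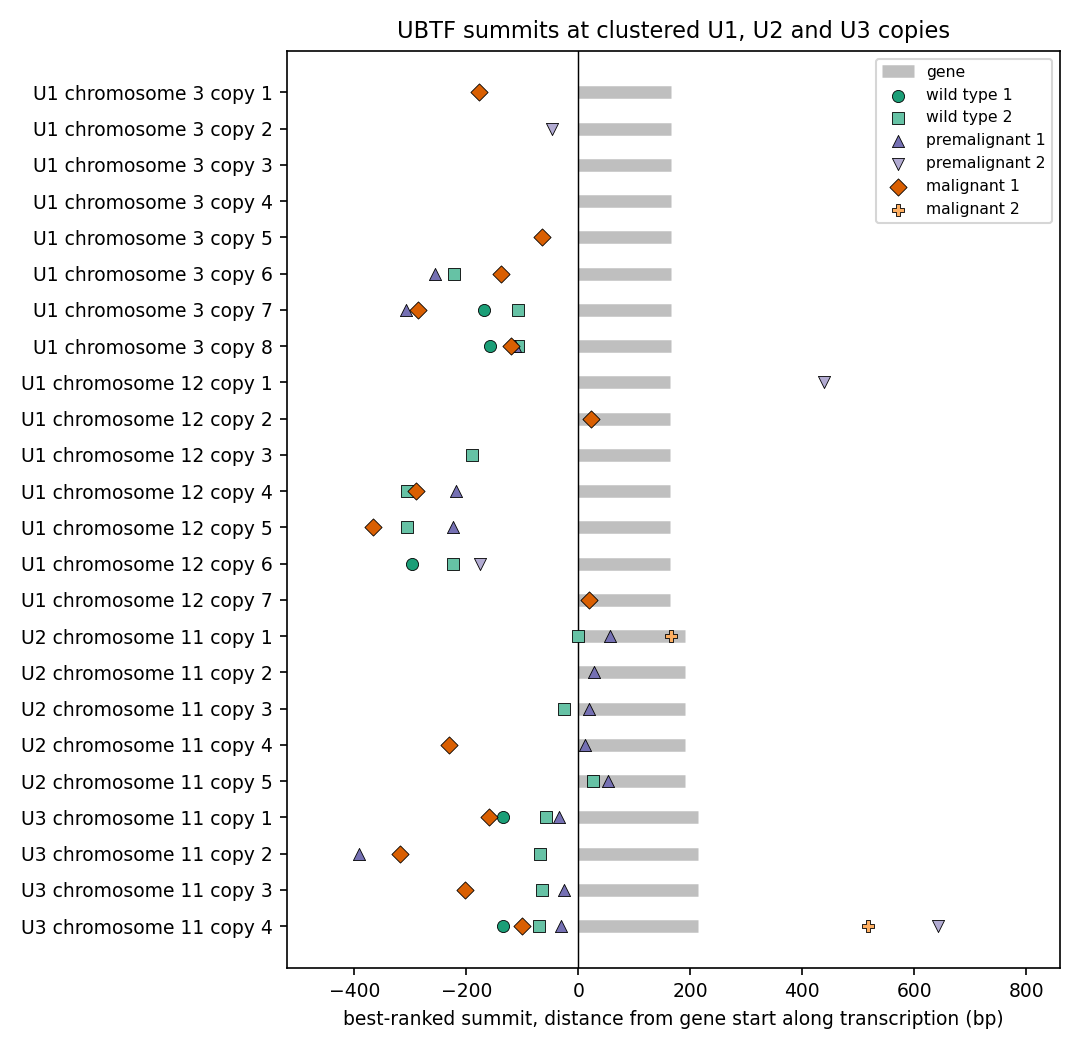
Each row is 1 clustered U1, U2 or U3 gene (grey bar) and each symbol is the best-ranked UBTF summit within 500 bp of it in 1 library, placed by its distance in bp from the gene start along transcription. U1 and U3 summits of the wild type libraries, premalignant 1 and malignant 1 lie mostly 25 to 392 bp before the start, the U2 summits of premalignant 1 lie inside the gene, and premalignant 2 and malignant 2 have 4 and 2 symbols in all.

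U2, which pairs with the branch point, differed in where its summits lay. All 5 clustered copies had a summit in premalignant 1, 13 to 57 bp inside the gene. Wild type 2 had 3, between 26 bp before the start and 27 bp after it, at rank percentiles of 66.6 to 71.0. Malignant 1 and malignant 2 had 1 each and the other libraries had none. The annotation holds 12 genes of the full U2 length of 191 bp, 9 named U2 and 3 named after a genomic clone on chromosome 1, which differ from the first clustered copy at 0 to 8 positions. In premalignant 1 all 12 had a summit inside the gene, 11 to 57 bp from the start. The number of the 12 genes with a summit was 1 in wild type 1, 5 in wild type 2, 1 in premalignant 2, 3 in malignant 1 and 2 in malignant 2. The position background of genes named U2 in the same order was 4.76%, 7.42%, 17.3%, 8.95% and 17.9%, and it was 3.12% in premalignant 1. Rank percentiles in premalignant 1 ran from 6.02 to 70.7. In 11 of these 12 genes the median 31-base word occurred 5 to 10 times in mm9, so the 12 summits are not independent observations.

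A pair of short motifs was read from the upstream sequences above after the clusters had been found, and their presence there is a description. The letters ATGCNNAT, of the type bound by octamer factors, were searched on both strands 151 to 300 bases before the start. They stood before 23 of the 24 clustered genes (95.8%), before 10.8% of the 240 dispersed U1, U2 and U3 genes, and before 5.64% of all 34653 annotated gene starts. In the 4 printed sequences they begin 220, 221, 231 and 233 bases before the start. The letters ACCGTNNGT, in the place of the proximal sequence element that recruits the snRNA activating complex, were searched on the transcribed strand in the last 100 bases. They stood before 16 of the 24 clustered genes (66.7%), before none of the dispersed ones, and before 0.182% of all gene starts. They begin 59 bases before the start in the printed U1 and U2 sequences and are not found in that of U3. The spacing ACC, 3 bases, AC, 3 bases, AA on the transcribed strand of the last 100 bases, chosen from textbook knowledge of that element, was found before 0.645% of small RNA genes and 0.496% of all gene starts, and before none of the clustered genes. The letters TATAA or TTATA stood in the last 40 bases before 12.4% of U6 genes, 11.2% of all small RNA genes and 6.01% of all gene starts.

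At U6 genes the summits lay mostly on the downstream side. Counting every summit in the 500 bp on either side, premalignant 2 had 60 upstream and 230 downstream, malignant 2 had 59 and 227, and malignant 1 had 14 and 88. In wild type 1 there were 16 and 16, in wild type 2 21 and 36, and in premalignant 1 9 and 13. The other small RNA genes, pooled, had no such excess downstream, with 85 upstream and 91 downstream in premalignant 2, 91 and 82 in malignant 2, and 63 and 39 in malignant 1. Among them U7 did have most of its best-ranked summits downstream in 5 libraries, at 6 of 7 and 8 of 8 genes in the wild type libraries, 5 of 5 in premalignant 1, and 6 of 7 and 8 of 11 in the malignant ones, and SNORD at 17 of 21 in premalignant 2. Inside the U6 gene itself the best-ranked summit lay in at most 2 copies of any list.

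**Figure D3:**
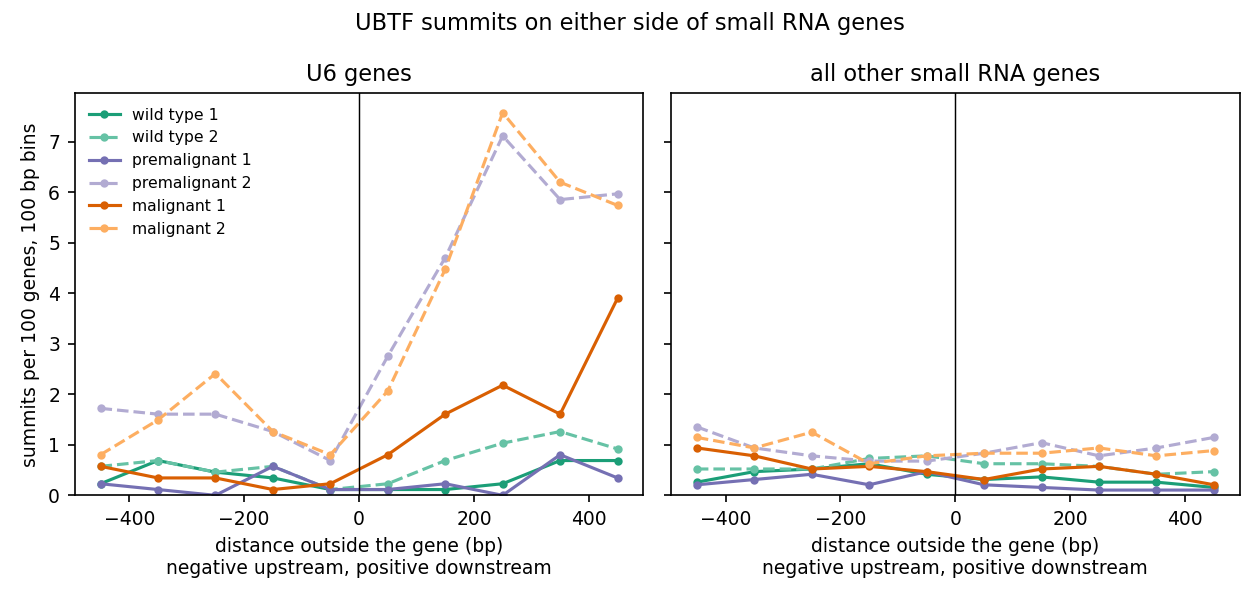
Lines give the number of UBTF summits per 100 genes in 100 bp bins upstream (negative) and downstream (positive) of the gene, for 871 U6 genes (left) and the 1918 other small RNA genes (right), 1 line per library. Premalignant 2 and malignant 2 climb to over 7 summits per 100 genes downstream of U6, malignant 1 follows at a lower level, and no line of the other genes exceeds 1.36.

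The sequence downstream of many of these U6 copies recurs in the genome. The ends of 3 copies are shown because they had the highest mean rank percentile in premalignant 2 and malignant 2 among the 82 copies with a downstream summit in both and a repeated downstream flank. The last 30 bases of the annotated gene are in capitals and the next 120 bases of mm9 in lower case, along the direction of transcription.
U6 copy 1 (chr9:30099333-30099482, minus strand): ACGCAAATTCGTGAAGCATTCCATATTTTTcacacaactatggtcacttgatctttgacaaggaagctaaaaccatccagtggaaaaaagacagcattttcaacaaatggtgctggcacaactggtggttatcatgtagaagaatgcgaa
U6 copy 2 (chr6:120093542-120093691, minus strand): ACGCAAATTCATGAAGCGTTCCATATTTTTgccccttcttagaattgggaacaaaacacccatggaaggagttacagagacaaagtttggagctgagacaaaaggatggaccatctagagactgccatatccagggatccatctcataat
U6 copy 3 (chr5:50681499-50681648, minus strand): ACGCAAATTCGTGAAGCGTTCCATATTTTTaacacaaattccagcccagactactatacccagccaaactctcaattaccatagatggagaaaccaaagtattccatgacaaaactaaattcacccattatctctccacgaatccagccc
The summits lay 374, 356 and 331 bp from the gene start in premalignant 2 and 560, 514 and 391 bp from it in malignant 2. Each 31-base word of the 500 bp downstream of these copies occurred, in the median, 1364.5, 2692.5 and 2005 times in mm9. Upstream the median was 1. Rank percentiles were 95.4, 97.1 and 93.0 in premalignant 2 and 98.0, 95.9 and 98.2 in malignant 2.

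The U6 genes were then split by this count alone, at a downstream median of 100 occurrences. The 124 genes at or above it had a summit in 85.5% of cases in premalignant 2, 86.3% in malignant 2 and 46.8% in malignant 1, beside position backgrounds of 17.3%, 17.3% and 8.86%. In wild type 1, wild type 2 and premalignant 1 the shares were 4.84%, 16.1% and 4.03%, beside 4.51%, 7.05% and 3.06%. The 747 U6 genes under it had a summit in 18.9%, 19.8% and 4.55% in premalignant 2, malignant 2 and malignant 1, beside backgrounds of 17.1%, 17.2% and 8.74%, and in 3.48%, 4.95% and 2.28% in the other 3. The 124 genes gave 106 of 247 U6 genes with a summit in premalignant 2, 107 of 255 in malignant 2 and 58 of 92 in malignant 1. Their median rank percentile there was 83.3, 76.8 and 53.4. The 747 other genes also had most best-ranked summits downstream in these libraries, at 96 of 141, 101 of 148 and 23 of 34 genes. In wild type 1, wild type 2 and premalignant 1 it was 11 of 26, 18 of 37 and 9 of 17. The split was made after the position of the summits was known and is a description. Without these 124 genes the mean difference of snRNA genes from the position background turned from 1.91 to -1.07 points. No repeat annotation was used here, so the repeated sequence is not named. Over whole lists, the share of peaks whose summit window had a median of at least 100 occurrences was 27.8% to 61.4%, and among member peaks it was 12.7% to 46.6%, lower in each library.

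**Figure D4:**
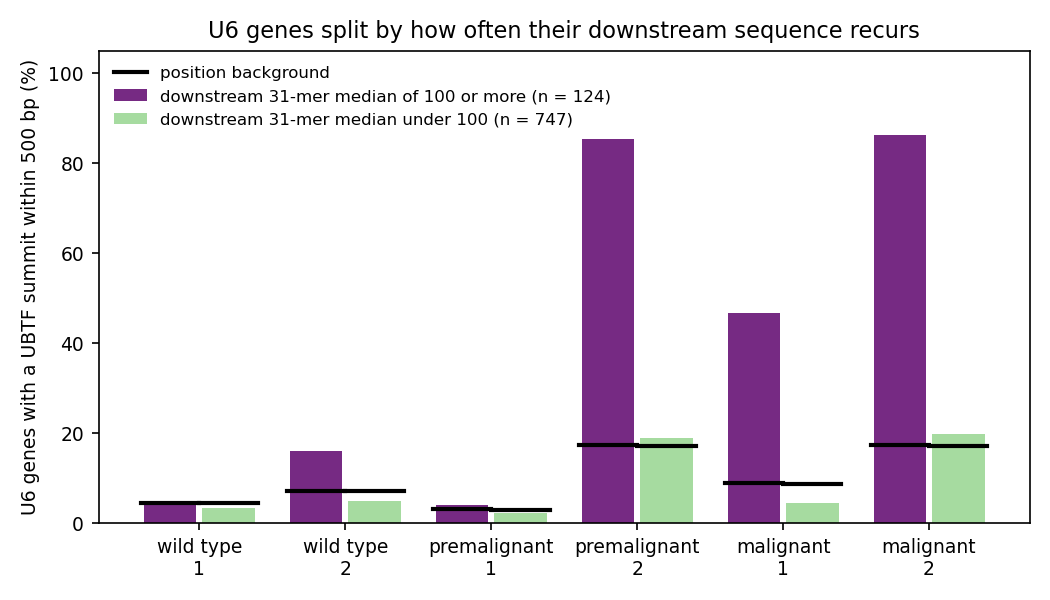
Bars give the percentage of U6 genes with a UBTF summit within 500 bp in each library, for the 124 genes whose downstream 500 bp recur in mm9 (purple, median of at least 100 occurrences of each 31-base word) and the 747 others (green), and black lines give the position background. The purple bars stand at 85.5%, 46.8% and 86.3% in premalignant 2, malignant 1 and malignant 2, and no other bar exceeds 19.8%.

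A summit in all 6 lists was found at 14 of the 2789 genes (0.502%), beside 3.03% of the other short genes. They were 7 U6, 4 SNORA, 2 U3 and 1 U7 genes. On the best 78074 peaks of each list 2 genes remained, beside 1.62% of the other short genes. The highest mean rank percentile, 98.2, belonged to a U6 copy in Galnt10 (chr11:57554802-57554904), with 98.7 and 98.7 in the wild type libraries, 96.2 and 97.5 in the premalignant ones, and 98.4 and 99.7 in the malignant ones. All 6 summits lay 549 to 576 bp from its start and so within 27 bp of each other. The next were a SNORA42 copy in Lrrc4c (chr2:96957571-96957693, mean 96.1), a SNORA17 copy (chr3:133251370-133251501, mean 92.3), a dispersed U3 copy (chr4:55312528-55312717, mean 92.0) and U6 copies on chromosome 6 (13499506, mean 89.6) and chromosome 8 (33296601, mean 87.0). U6 copies on chromosomes 3, 14 and 16, with means of 73.1, 71.8 and 69.0, and a U7 copy on chromosome 5, with 66, completed the first 10.

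Most of these genes had a simple repeat at the median summit. Of the 14 genes, 12 had a tandem repeat in the 201 bp around the median summit. It was at least 40 bp long with a unit of up to 6 bases, and in 8 genes the unit was AG, read as GA or CT. Summits of the U6 copy on chromosome 6 spread over 435 bp between lists and those of a SNORA17 copy (chr3:67377082) over 270 bp. Some of them therefore lay outside that window. At the other genes with a repeat the spread was 26 to 81 bp. The windows at the U6 copy in Galnt10 and the U3 copy of chromosome 4 are shown on the plus strand, with runs of at least 5 GA or CT units in capitals.
U6 chromosome 11 (chr11:57555264-57555464): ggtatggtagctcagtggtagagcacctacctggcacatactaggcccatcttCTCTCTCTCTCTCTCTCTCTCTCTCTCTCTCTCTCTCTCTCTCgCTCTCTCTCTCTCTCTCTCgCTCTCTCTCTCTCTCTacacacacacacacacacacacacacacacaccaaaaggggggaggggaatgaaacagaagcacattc
U3 chromosome 4 (chr4:55312693-55312893): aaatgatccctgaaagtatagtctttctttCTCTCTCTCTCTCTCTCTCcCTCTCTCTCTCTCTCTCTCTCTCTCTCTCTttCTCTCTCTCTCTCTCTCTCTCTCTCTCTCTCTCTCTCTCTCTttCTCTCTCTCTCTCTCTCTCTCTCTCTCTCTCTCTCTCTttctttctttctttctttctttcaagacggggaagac
The genes without a repeat were copy 4 of the U3 cluster and a U6 copy on chromosome 5 (118426463 to 118426569) with 69.2% GC at the summit. The summits of each were up to 777 bp apart between lists. Such repeats were common in whole lists too. A repeat stood at 58.3% and 43.5% of member summits in the wild type libraries, 45.6% and 12.8% in the premalignant ones, and 17.7% and 16.9% in the malignant ones, against 53.5%, 41.6%, 44.8%, 10.4%, 13.3% and 13.7% of all autosomal peaks of the same lists.

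**Figure D5:**
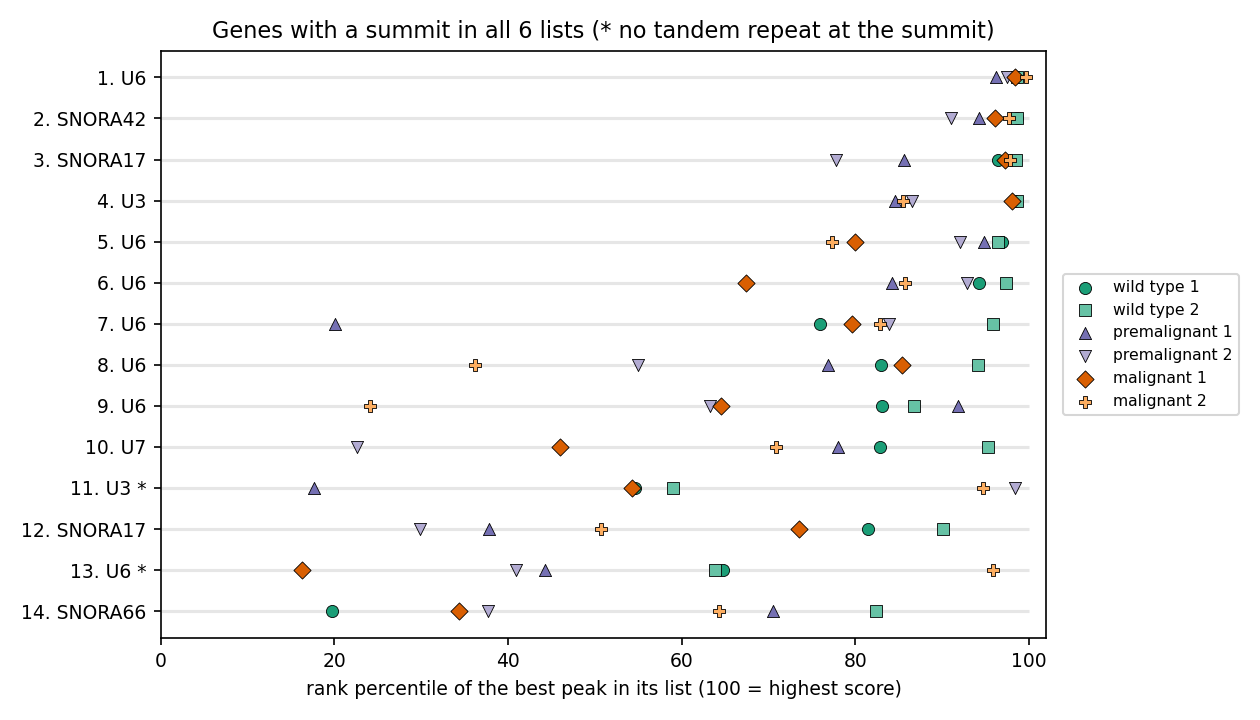
Each row is 1 of the 14 genes with a UBTF summit in all 6 lists, ordered by mean rank percentile, and each symbol is the rank percentile of its best peak in 1 library (100 is the highest score of a list). Symbols of the first 4 genes lie above 77, and those of the lower rows spread widely between libraries.

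Of the 103 individually named snoRNA genes, 15 had a summit in at least 1 list, beside 25.6% of all members and 31.5% of other short genes, 4 of them in 3 lists, 4 in 2 and 7 in 1. By library 5 and 9 had a summit in the wild type libraries, 1 and 1 in the premalignant ones, and 7 and 4 in the malignant ones. Less the position background, named genes minus copies named by family gave 1.22 and 2.80 points in the wild type libraries, -1.80 and -14.2 in the premalignant ones, and 0.286 and -11.4 in the malignant ones (mean -3.84 ± 7.14, SD, n = 6, exact sign-flip permutation p = 0.375, adjusted p = 0.375). The 4 genes found in 3 lists were Scarna6 in Atg16l1, Snora64 in Rps2, Snord37 in Eef2 and Snord49b in 2410006H16Rik. In that order they lay 28686, 2656, 2319 and 202 bp from the start of the host gene. Snord37, which lies in the gene of elongation factor 2, had summits 96 to 199 bp upstream at rank percentiles of 45.1 in wild type 1, 91.4 in wild type 2 and 73.2 in malignant 1. Scarna6 had 34.3, 84.6 and 26.7 in the same libraries. Snora64 had 26.4 and 52.7 in wild type and 12.1 in premalignant 1. The start of the gene Snhg9 had the same rank percentiles in the same lists, so both may share these peaks. None of the 4 had a summit in premalignant 2 or malignant 2.

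Some snoRNA groups were looked up for their role. Their counts can be read beside the 25.6% of all members that had a summit in at least 1 list. Snord118 (the U8 RNA), Snord13, Snord17 and the 4 Snord14 genes, which act in ribosomal RNA processing or modification, had no summit within 500 bp in any list. The 8 snoRNA genes in introns of Snhg1 had none either, and of the 9 in Gas5 2 had one in at least 1 list. Of 137 SNORD115 genes, which are imprinted and expressed mainly in brain, 15 had a summit in premalignant 2 (10.9%, background 16.6%), 2 in malignant 1, 1 in wild type 2 and in malignant 2, and none in the other lists. Of 27 SNORD116 genes 1 had a summit in any list. SNORA17, with 579 copies, had 17 and 30 in the wild type libraries, 10 and 52 in the premalignant ones, and 22 and 49 in the malignant ones, below its background in every library, for example 2.94% beside 4.63% in wild type 1 and 8.46% beside 17.6% in malignant 2.

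Small RNA genes within 1000 bp of a protein-coding gene start numbered 65, and 10.8% and 16.9% of them had a summit in the wild type libraries, 9.23% and 9.23% in the premalignant ones, and 16.9% and 13.8% in the malignant ones. That was above the position background of 4.52%, 7.11%, 2.88% and 8.62% in wild type 1, wild type 2, premalignant 1 and malignant 1, and below the 16.7% and 17.1% of premalignant 2 and malignant 2. For the 2724 genes farther away the shares were 2.61% to 15.1%. The 847 snRNA genes outside protein-coding genes had a summit more often than the 484 within them in each library, for example 5.43% against 1.86% in wild type 1 and 25.7% against 18.8% in malignant 2. snoRNA genes outside them had the lower share in wild type 2 (4.91% against 5.54%) and premalignant 1 (1.53% against 2.03%). They had the higher share in the other libraries, from 7.53% against 7.38% in malignant 2 to 10.4% against 5.35% in premalignant 2.

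Differences between stages at single genes were read on the best 78074 peaks of each list. A summit in both wild type lists and neither malignant list was found at 30 genes (1.08%), beside 1.23% of the other short genes, and the reverse at 9 genes (0.323%), beside 0.183%. Both wild type lists and neither premalignant list had 20 genes (0.717%, beside 0.626%), and the reverse 4 genes (0.143%, beside 0%). These shares were near those of other short genes. Of the 30 genes, 20 had a summit in a malignant list once all its peaks were counted, as had 8 of the 9 in a wild type list. The best-ranked of the 30 were the U6 copy on chromosome 8 named above, SNORA17 copies on chromosome 13 (56268961) and chromosome 15 (29933817 and 29933941, which share a peak) and a SNORA24 copy on chromosome 13 (75829420). Of the 9, 8 were U6 copies. The first was on chromosome 17 (76473886 to 76473991), with rank percentiles of 95.9 and 98.9 in malignant against 36.7 in wild type 2 and no summit in wild type 1. The ninth gene was SNORD58 on chromosome 18 (75160712 to 75160777), at which wild type stood at 24.0 and 56.8 and malignant at 85.8 and 95.2. These rank percentiles are from full lists of unequal length. Both genes were picked for this pattern, so their ranks restate the choice and are no separate evidence. The 4 premalignant genes were U6 copies with a repeated downstream flank.

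The genes that make and carry these RNAs were examined at their own starts. A summit lay within 500 bp of 28.6% and 35.2% of all protein-coding gene starts in the wild type libraries, 16.2% and 21.3% in the premalignant ones, and 37.9% and 26.2% in the malignant ones, and 20.7% of starts had one in at least 4 lists. Among snRNA promoter factors, 2 of the 11 annotated genes had one in at least 4 lists, namely Pou2f1, which encodes the octamer factor OCT1, and Zfp143, which encodes an activator of snRNA genes. Of the Integrator subunits, which cleave snRNA transcripts at their 3′ end, 3 of 12 did, Ints6, Ints8 and Ints12. Among box C/D proteins 1 of 5 did, Nhp2l1, among box H/ACA proteins 0 of 5, and among Cajal body and snRNP assembly genes 1 of 8, Gemin5. Of 23 snoRNA host genes 7 did, among them Ncl, Gas5, Tnpo2, Hspa8, Snhg5 and Eif4a2. A summit in all 6 lists was present at Ints6, Pou2f1, Nhp2l1 and Eif4a2, beside 5.93% of all protein-coding starts. At Ints6 the rank percentiles were 95 and 94.7 in the wild type libraries, 77.9 and 97.2 in the premalignant ones, and 99.6 and 97.0 in the malignant ones. At Pou2f1 they were 69.0 and 79.4, 88.6 and 24.2, and 71.7 and 81.8 in the same order.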

How the data were processed

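UBTF ChIP-seq peak lists of 6 libraries were used. Paired reads had been mapped by the authors to a reference of mm9 and 1 rDNA copy (bowtie2). Duplicates were removed with Picard, and SPP called peaks per library, with default options in each case. By default bowtie2 reports 1 of several equal placements, and no filter on such reads is stated. The submitters' notes name CASAVA 1.8.2, Bowtie and Picard 1.110. The deposited signal column holds the peak caller's score, and a deposited column of p-value type holds the FDR of each peak. The authors' reproducibility test between replicates was not applied here. Peak lists hold no read counts, so depth is unknown, no interval could be given, and list length limits the precision.

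Lists were read as deposited, and peaks on rDNA were left out. The position background was computed exactly, in place of shuffled genes. Families were taken from GENCODE M1 names. 31-base words were counted on both strands of mm9, in all lists for every 50th peak. Means over libraries were compared with 0 by exact sign-flip permutation tests over 6 libraries, adjusted by Benjamini-Hochberg. Stages were compared by exact permutation tests over 2 libraries each. The units of these p-values are libraries and not genes. The sign-flip test reaches its smallest p whenever all signs agree, whatever the spread. Named genes were those with a summit in all 6 lists, best 10 by mean rank percentile, the best of each family among them, a fixed list, and up to 5 genes per stage pattern. Others were named after their values were seen. Symbols of the Rnu type are not in the annotation used here. The members and lists were chosen with earlier results of these data known. Alternatives were distances of 200 and 1000 bp, equal list lengths, an FDR of 0.01, merged loci, genes far from protein-coding starts, positions that are not N, and sets of libraries. Python 3.11.15, numpy, pandas and pysam were used, and scripts were tested on simulated data. Some items are not reported here.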

Additional observations from a re-analysis of the deposited data

Results flagged for a closer look

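The 3 results below were picked out because both libraries of one stage lay on the opposite side of 0 from both libraries of another. None of these differences was tested, and 2 libraries against 2 cannot give a p under 0.333. The share of snRNA genes with a summit, less the position background, was -0.427 and -0.114 points in the wild type libraries, 0.892 and 4.82 in the premalignant ones, and 0.376 and 5.91 in the malignant ones. The mean difference was 3.13 points between premalignant and wild type and 3.42 points between malignant and wild type. Without the 124 U6 genes with a repeated downstream flank the values were -0.505 and -1.06, 0.883 and -1.69, and -3.48 and -0.569, so premalignant 1 alone was above 0. On the best 78074 peaks of each list malignant 1 was below 0 as well, at -0.234. Named snoRNA genes less copies named by family stood above 0 in both wild type libraries and below 0 in both premalignant libraries, 9.99 points apart on average. This rested on 5 and 9 of 103 named genes against 1 and 1. On the best 78074 peaks of each list both wild type values were below 0 as well, at -0.730 and -0.887. No stage has 4 libraries, so no library was looked at as standing apart within its stage.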

How the results depend on the processing

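Of 125 recomputed values, 111 kept their direction and side of the threshold, but the side was fixed by design with 5 or fewer libraries (smallest p 0.0625 at 5) and for the stages (0.333). At 1000 bp, 4 results passed an adjusted p of 0.05 that they had missed, each with exact sign-flip permutation adjusted p = 0.0469. They were the differences from the position background of all small RNA genes (-0.856 points), snRNA genes (3.80) and snoRNA genes (-5.11), and snRNA less snoRNA genes (8.91). At 200 bp snRNA genes stood below the background (-1.19), as they did without the 124 U6 genes with a repeated flank (-1.07, an alternative chosen after seeing the data). Named genes less copies stood above 0 in the libraries with peaks under 500 bp (0.742) and without premalignant 2 and malignant 2 (0.628, chosen after seeing the data). On equal list lengths the stage differences turned to -0.143 (premalignant less wild type), -0.538 (malignant less premalignant) and -0.681 points (malignant less wild type). Leaving out 1 library moved these from -2.10 to 10.1, from -4.16 to 8.03 and from 1.74 to 10.1, the first 2 below 0 without premalignant 2, and without premalignant 1 or malignant 2. Over the same omissions the difference of all small RNA genes from the background ran from -1.73 to -1.32, of snRNA genes from 1.1 to 2.38, of snoRNA genes from -5.26 to -3.55, snRNA less snoRNA genes from 4.66 to 7.64, named genes less copies from -5.17 to -1.78 and the median rank percentile less 50 from -4.43 to -1.81. With the replicate number as a block the stage differences were the same, 4.00, 1.94 and 5.93 points, from paired values of -0.932 and 8.93, 3.84 and 0.0359, and 2.90 and 8.96. The numbers are shared labels, and no source states that they mark a shared litter or day. Depth is unknown.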

Other observations

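Members of the other snoRNA group, which hold 55 genes with names outside the families above, had a summit at 4 and 6 genes in the wild type libraries, 3 and 6 in the premalignant ones, and 6 and 6 in the malignant ones, 7.27%, 10.9%, 5.45%, 10.9%, 10.9% and 10.9%, beside position backgrounds of 4.53%, 7.08%, 2.99%, 17.1%, 8.79% and 17.1%. U13 had 3 and 2 of 23 genes in the wild type libraries (13% and 8.70%, backgrounds 4.54% and 7.11%), 0 and 2 in the premalignant ones (0% and 8.70%, backgrounds 2.99% and 17.2%), and 0 and 3 in the malignant ones (0% and 13%, backgrounds 8.96% and 17.4%). SCARNA genes had 2 and 6 of 39 (5.13% and 15.4%, backgrounds 4.75% and 7.40%), 0 and 5 (0% and 12.8%, backgrounds 3.08% and 17.4%), and 4 and 4 (10.3% and 10.3%, backgrounds 8.95% and 17.6%) in the same order. A cluster of 13 U6 copies on chromosome 16 (36137958 to 36438832) had a summit at 2 to 4 copies in each list, and 1 of these, at 36386276, had one in all 6. The counts were 4 and 2 in the wild type libraries, 2 and 2 in the premalignant ones, and 3 and 3 in the malignant ones. The position background of all U6 genes in the same order was 4.52%, 7.05%, 3.0%, 17.1%, 8.75% and 17.2%. A background for this cluster alone is not given here, so its counts cannot show a preference. Of the 713 genes with a summit in any list (25.6%, beside 31.5% of the other short genes), 400 had one only in premalignant 2, in malignant 2 or in both. These are the longest lists, with 575596 and 563195 peaks outside the rDNA. The matching share of the other short genes is not given here, so the count cannot show a preference of small RNA genes. GC content of the 1 kb around small RNA genes other than U6 with a summit had a median of 45.2% and 47.1% in the wild type libraries, 47.4% and 44.0% in the premalignant ones, and 48.3% and 43.9% in the malignant ones. Over all 1918 small RNA genes other than U6 the median was 44.1%, close to the values of premalignant 2 and malignant 2.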
